A study of Bos taurus with 4 samples.

Results

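Actin, tubulin and the motor proteins that run along their filaments were followed in bovine gamma delta T cells exposed for 4 h to an apple polyphenol extract (APP). The 119 genes described here were chosen by symbol from the platform's probe-to-gene table, among 9155 genes that could be named. They are the actins and actin-related proteins, the ARPC, CAPZ, CFL, PFN, TMSB, TPM and CORO families, LCP1, the myosins MYH, MYL and MYO, the tubulins with the gamma-tubulin complex, the kinesins (KIF), dynein and dynactin (DYNC, DYNL and DCTN), vimentin and the septins. They were measured by 169 of 13292 named probe sets. The rule used names only and no measured value, though the set was chosen with earlier results of these data known.

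Gamma delta T cells are innate-like lymphocytes that are abundant in the blood of young ruminants. Here they were sorted from the blood of 2 calves, numbered 301 and 303, to a purity above 97%, and were kept in culture overnight before treatment. The cells of each calf then received APP, an aqueous extract at 42.2 µg/ml, or phosphate-buffered saline (PBS) as the vehicle. This gave 4 Affymetrix arrays, 1 per calf and treatment. No genotype or breed is named in the sources used here, the labels put the calves at 1 to 6 months of age while the series' design text calls them neonatal, and both groups share the sort and the overnight rest.

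Actin monomers join into filaments that push the membrane outward and carry receptors inward. Profilin and thymosins hold monomers, cofilin severs old filaments, the Arp2/3 complex starts branches, capping protein stops growth, and plastin, alpha-actinin and tropomyosin bundle or coat the filament. Myosins pull on actin. Microtubules, built from alpha- and beta-tubulin and started by gamma-tubulin rings, are the tracks of kinesins and of dynein with its cofactor dynactin. In a T cell that meets a target, actin spreads at the contact and dynein draws the microtubule-organising centre toward it.

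Values are log2 ratios of a gene to its own median over the 4 arrays, so a value of 0 is the middle of the arrays and a difference of 1 is 2-fold. Levels of different genes cannot be compared, and whether a gene lies near background is unknown. For the same reason the labelled cell type could not be checked by the presence or absence of markers. In these bulk samples fewer cells of a type and less RNA per cell cannot be told apart. A gene is said to have risen or fallen where limma, blocked by calf, gave an adjusted p below 0.05 over all 9155 genes. Permuting the arrays of 1 gene without regard to calf could at best reach an exact p of 0.33. Swaps within each calf, which keep the pairing, leave even fewer arrangements, so no permutation test was made. Spiked hybridization controls, added in equal amount to every array, stood higher under APP, by 0.76 and 0.94 in calves 301 and 303 (0.85 on average). Polyadenylated controls (dap, lys, phe and thr) stood higher by 0.64 and 0.29, or 0.46 on average, and were not used as a scale. On the hybridization-control scale, in which these controls are set equal, the median change of all genes moved from 0.01 to -0.84, and each APP change moved down by about 0.85. Rises between 0.46 and 0.85 turn on that scale but would keep their sign with the polyadenylated controls set equal. Directions are given on the deposited scale, with the other value for each rise given here that turned, except CD5.

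As a whole the cytoskeletal genes split evenly. Of the 119, 32 rose, against 23% of all genes tested, and 33 fell, against 29.7%, while 54 did not pass. In either direction 52.7% of all genes were called. Their median change was -0.02, beside 0.01 for all genes. Both shares lie near those of all genes, so the counts say nothing particular about this set. At least 2-fold in both calves, 2 members were higher (3.5% of all genes) and 5 were lower (6.29%). The pair of large rises was TPM4 and LCP1, and the 5 large falls were MYO1F, DYNLT3, KIF3C, KIF3A and ACTR10. On the APP arrays 46 members lay above both PBS arrays (36.6% of all genes) and 44 lay below both (37.2%), and the other 29 overlapped. The 2 calves changed in the same direction for 106 of the 119, and for 7751 of the 9155 genes tested. On the hybridization-control scale 2 members were called higher (TPM4 and LCP1) and 110 lower.

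**Figure D1:**
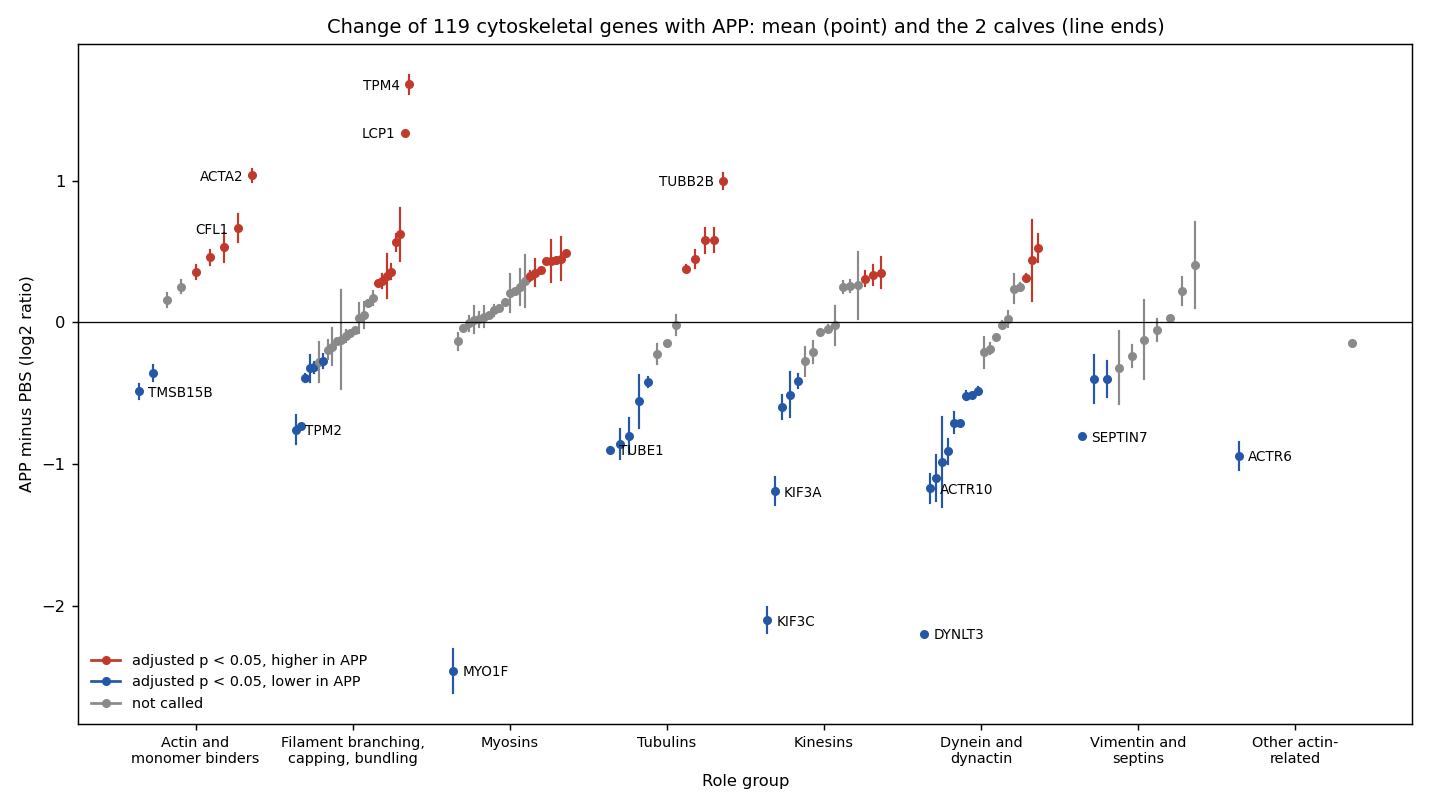
Change of each of the 119 cytoskeletal genes, APP minus PBS on the log2 ratio scale (vertical axis), grouped by role (horizontal axis); points are means of the 2 calves, line ends are the calves, red marks genes that rose, blue those that fell and grey those not called. The largest falls (MYO1F, DYNLT3 and KIF3C, all below -2) lie farther from 0 than the largest rises (TPM4 at 1.68 and LCP1 at 1.34).

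How firm the calls are depends on the calf as a block, since each treatment has only 2 arrays. Without the block 17 members rose and 25 fell. Over all genes rises were 39.3% of the calls without the block, against 43.6% with it. When the fit left out the PBS array of calf 301, 26 of the 65 calls were kept (8 rises and 18 falls), and 36 (13 and 23) when it left out that calf's APP array. For calf 303 the PBS array took the number to 22 (5 and 17) and the APP array to 39 (15 and 24). Across the unblocked fit and those 4 fits, which had no block either, 21 members stayed called. These were 5 rises (TPM4, LCP1, ACTA2, TUBB2B and CFL1) and 16 falls (MYO1F, DYNLT3, KIF3C, KIF3A, ACTR10, DYNLT2B, DYNLT1, ACTR6, DYNC1I2, TUBE1, TUBGCP4, SEPTIN7, TUBGCP5, TPM2, DCTN5 and DYNC2I2). How many of all genes stayed called across these fits was not counted, so neither the number nor its split is a result about this set. The 23 calls lost without the block were those of ACTN2, ACTR2, ARPC1A, ARPC5, CFL2, CORO6, DYNC1I1, DYNC1LI1, DYNC2I1, KIF22, KIF23, KIF3B, KIF5C, MYL2, MYL4, MYO10, MYO1D, SEPTIN1, TMSB10, TMSB15B, TPM3, TUBA1A and VIM. Leaving out the PBS array of calf 301 moved CFL2 to 0.23, CORO6 to 0.54 and VIM to -0.18, and leaving out that calf's APP array moved KIF3B to 0.22, KIF5C to 0.11, MYL4 to 0.27, SEPTIN1 to -0.24, DYNC1I1 to 0.68 and MYO10 to 0.53. Leaving out the PBS array of calf 303 moved CORO6 to 0.12, DYNC2I1 to 0.29, KIF5C to 0.16 and VIM to -0.62, and leaving out its APP array moved DYNC1I1 to 0.20, KIF22 to 0.21, KIF5C to 0.51 and MYO10 to 0.17. With TMSB15B, described among the monomer binders, these were the called members that an array moved by more than 1.5 times.

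**Figure D2:**
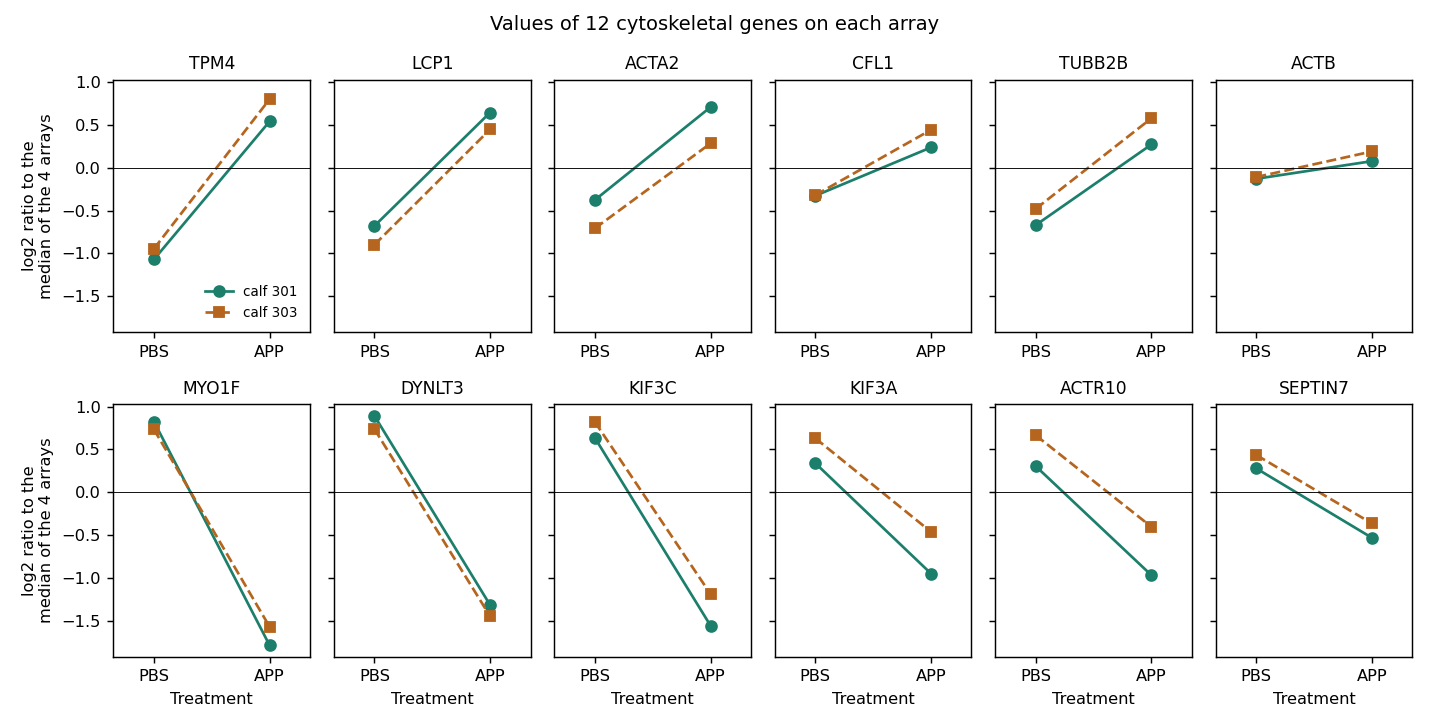
Log2 ratio to the median of the 4 arrays (vertical axis) for 12 cytoskeletal genes under PBS and APP, with circles and solid lines for calf 301 and squares and dashed lines for calf 303. The lines of the calves run nearly parallel, from TPM4 (1.61 and 1.75) to MYO1F (-2.61 and -2.30), while those of ACTB are close to flat.

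Among the 9 genes of actin and its monomer binders, ACTA2, CFL1, ACTA1, PFN1 and CFL2 rose, TMSB10 and TMSB15B fell and ACTB and ACTG1 did not pass. Their median was 0.35; of the 5 that rose, ACTA2 alone stayed above 0 on the hybridization-control scale. Across all genes 23% rose and 29.7% fell. The non-muscle actins themselves moved little. ACTB, the beta-actin of all cells, read -0.13 and -0.11 on the PBS arrays of calves 301 and 303 and 0.08 and 0.19 on the APP arrays, a change of 0.25 ± 0.07 (SD, n = 2 calves; adjusted p = 0.0634, limma). The groups did not overlap, but the step was small. ACTG1, gamma-actin, changed by 0.21 and 0.11 in calves 301 and 303 (adjusted p = 0.207).

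CFL1, the cofilin of blood cells, stood at -0.33 and -0.32 under PBS and at 0.24 and 0.44 under APP. It rose by 0.56 and 0.76 in calves 301 and 303, 1.58-fold on average (adjusted p = 0.00162, limma), but lay at -0.19 on the hybridization-control scale. PFN1, profilin, rose by 0.46 ± 0.08 (SD, n = 2 calves) and the muscle-type cofilin CFL2 by 0.35 ± 0.07, and they lay at -0.39 and -0.50 on that other scale. TMSB10, a thymosin that sequesters monomers, fell by 0.41 and 0.30 in calves 301 and 303 (adjusted p = 0.0188). TMSB15B fell by 0.49 on average, yet its arrays overlapped: PBS gave -0.49 and 0.79, APP gave -1.03 and 0.35, so the calves lay farther apart than the treatments. Its direction turned without the APP array of calf 301 (0.21) or the PBS array of calf 303 (0.15), and it reached -1.13 and -1.18 without the PBS array of calf 301 and the APP array of calf 303.

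ACTA2, the alpha-actin of smooth muscle, was the largest rise of this group. Its PBS arrays read -0.38 and -0.71 and its APP arrays 0.71 and 0.28, a change of 1.08 and 0.99 in calves 301 and 303 (2.05-fold, adjusted p = 0.000163, limma; 0.19 on the hybridization-control scale). ACTA1, skeletal alpha-actin, rose by 0.53 ± 0.14 (SD, n = 2 calves) and lay at -0.32 on that scale. Actin genes are near-identical in their coding parts, so probe sets of ACTA1, ACTA2, ACTB and ACTG1 may share signal. Of 9 fibroblast and smooth muscle markers, CNN1 (1.95 and 0.93 in calves 301 and 303), TAGLN (0.40 on average) and DES (0.40) rose with ACTA2, none fell (0 lower at an unadjusted p below 0.05, limma), and the collagens COL1A1, COL1A2 and COL3A1, DCN, LUM and PDGFRB did not pass. Over all genes 23% rose and 29.7% fell. TAGLN and DES lay at -0.45 each on the hybridization-control scale. The DES call was lost without the block (adjusted p = 0.22, limma) and in each fit that left out 1 array, with 0.13 without APP 301, 0.20 without PBS 303 and 0.68 without APP 303, and the TAGLN call in each such fit. The part of such cells in the ACTA2 change was not tested.

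Proteins that coat and bundle filaments gave the largest rises of all 119. TPM4, a non-muscle tropomyosin that stabilises actin cables, stood at -1.07 and -0.95 under PBS and at 0.54 and 0.80 under APP. It rose 3.20-fold (1.68 ± 0.09, SD, n = 2 calves; adjusted p = 3e-05, limma) and stayed at 0.83 on the hybridization-control scale. LCP1, the plastin of white blood cells that bundles actin at the T cell contact zone, read -0.68 and -0.90 under PBS and 0.64 and 0.45 under APP. Its rise was 2.52-fold (1.34 ± 0.02; adjusted p = 5.96e-05), or 0.48 on that scale. Each of these genes rests on 1 probe set.

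The tropomyosins did not move together. TPM2 fell by 0.86 and 0.65 in calves 301 and 303, and its probe sets averaged -1.07 and -0.44. TPM3 rose by 0.28 ± 0.02 (SD, n = 2 calves), but lay at -0.57 on the hybridization-control scale. TPM1 changed by -0.28 and did not pass (adjusted p = 0.0669, limma), with probe sets at -0.60 and 0.04. TPM4 thus rose while TPM2 fell, and neither direction changed under any scaling tried. The hybridization-control scale lowers every change, so it could turn the rise but not the fall.

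The barbed-end capping protein is a dimer of an alpha and a beta chain, and its genes split. CAPZB, the beta chain, read -0.31 and -0.26 under PBS and 0.19 and 0.37 under APP. It rose by 0.56 ± 0.09 (SD, n = 2 calves; adjusted p = 0.00277, limma), and lay at -0.29 on the hybridization-control scale. CAPZA2, an alpha chain, fell by 0.72 and 0.74 in calves 301 and 303 (adjusted p = 0.000722). The other alpha chain, CAPZA1, changed by -0.08 (adjusted p = 0.519). The capping chains therefore went in different directions on the deposited scale. CAPZB and CAPZA2 each had groups that did not overlap, as in 36.6% (APP above) and 37.2% (APP below) of all genes. With 1 array left out CAPZB ran from 0.48 to 0.65 and CAPZA2 from -0.92 to -0.54, and neither stayed called in each such fit.

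The Arp2/3 complex changed little. Of the 9 genes of its subunits 1 rose, 3 fell and 5 did not pass, where 23% of all genes rose and 29.7% fell. Changes of the subunits ran from -0.32 to 0.36. ACTR2, one of its actin-like subunits, fell by 0.32 ± 0.13 (SD, n = 2 calves; adjusted p = 0.0325, limma), as did ARPC1A (-0.32) and ARPC5 (-0.27, adjusted p = 0.0493). ARPC4 rose by 0.36, but lay at -0.49 on the hybridization-control scale. ACTR3 changed by 0.14 and ARPC2 by -0.13, neither past the test.

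Coronins, which bind Arp2/3 and old filaments, gave 2 rises and 1 fall among 5 genes, where 23% of all genes rose and 29.7% fell. CORO2A rose by 0.44 and 0.80 in calves 301 and 303 and CORO6 by 0.17 and 0.48, but they lay at -0.23 and -0.52 on the hybridization-control scale. CORO7, a coronin of the Golgi, fell by 0.39 ± 0.04 (SD, n = 2 calves; adjusted p = 0.0119, limma). CORO1A, the main coronin of T cells, moved little (adjusted p = 0.656, limma), at 0.01 and 0.03 under PBS and -0.05 and -0.03 under APP. Of the 4 alpha-actinins the muscle gene ACTN2 rose by 0.29 (-0.56 on the other scale). The widely expressed ACTN1 and ACTN4 did not pass, and the probe sets of ACTN4 ran from -0.31 to 0.62.

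In the myosin family 8 of 23 genes rose by small amounts and 1 fell by a large one. Over all genes 23% rose and 29.7% fell. The family's median of 0.21 moved to -0.64 on the hybridization-control scale. The 1 fall, of MYO1F, was the largest change of all 119 genes. MYO1F encodes a class I myosin of leukocytes that links membranes to actin and takes part in migration and secretion. Its PBS arrays read 0.83 and 0.73 and its APP arrays -1.79 and -1.57. Its change was -2.61 and -2.30 in calves 301 and 303, a fall of 5.49-fold on average (standard error 0.111, adjusted p = 1.62e-05, limma). In fits that left out 1 array its change stayed between -2.56 and -2.35. The gene rests on 1 probe set.

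No other class I myosin fell. MYO1D (0.49 ± 0.02, SD, n = 2 calves) and MYO1C (0.43 ± 0.21) rose and MYO1A changed by 0.25 without passing (adjusted p = 0.0878, limma), and these 3 lay at -0.36, -0.42 and -0.60 on the hybridization-control scale. Non-muscle myosin II pulls actin filaments together. Its heavy chain gene MYH9 read -0.14 and -0.32 under PBS and 0.29 and 0.12 under APP, a rise of 0.43 and 0.44 in calves 301 and 303 (adjusted p = 0.00767). The light chain gene MYL6 rose by the like amount (0.43 and 0.45), and MYH9 and MYL6 lay at -0.42 and -0.41 on that other scale. The regulatory light chain gene MYL12A, at -0.06 and -0.07 under PBS and 0.03 and 0.04 under APP, changed by 0.10 (adjusted p = 0.396).

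Small rises were also seen in genes of striated muscle, whose products build the sarcomere. There are 12 of them among the 119 (ACTA1, ACTN2, ACTN3, MYH1, MYH3, MYH7, MYH8, MYL1, MYL2, MYL3, MYL4 and MYL11; a grouping drawn with the values in view). Their changes ran from -0.12 to 0.53 with a median of 0.18, and 4 rose (ACTA1, ACTN2, MYL2 and MYL4), though they lay at -0.32, -0.56, -0.52 and -0.40 on the hybridization-control scale, while none fell in limma (5 higher and 0 lower at an unadjusted p below 0.05). Over all genes 23% rose and 29.7% fell, and without the block the calls of ACTN2, MYL2 and MYL4 were lost. The median of the other 107 members was -0.05. Of the 65 called members among all 119, 32 changed by less than 0.5, and 3 of these are of striated muscle. Over all genes the same held for 1835 of the 4821 called.

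The tubulins divided by kind, on arrays where 23% of all genes rose and 29.7% fell. Of 6 alpha- and beta-tubulin genes, which build the microtubule wall, 5 rose and none fell, with a median of 0.51; on the hybridization-control scale TUBB2B alone stayed above 0. Of 7 genes for gamma-, delta- and epsilon-tubulin and the gamma-tubulin ring, 5 fell and none rose, with a median of -0.56. That median kept its sign under every scaling tried, but the hybridization-control scale lowers every change and could not turn it. In all 7 both APP arrays lay below both PBS arrays, as in 37.2% of all genes. At an unadjusted p below 0.05 the counts were the same, 5 higher and 0 lower for the first kind and 0 higher and 5 lower for the second (limma). The division was drawn with the values in view, and the difference between the kinds was not tested.

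TUBB2B, a beta-tubulin, read -0.67 and -0.48 under PBS and 0.27 and 0.58 under APP, a rise of 0.94 and 1.06 in calves 301 and 303 (adjusted p = 2e-04, limma). Its probe sets disagreed in size, with 0.18 for one and 1.81 for the other. TUBA4A rose by 0.58 ± 0.12 (SD, n = 2 calves), TUBB1 by 0.58 ± 0.12, TUBB4A by 0.45 ± 0.09 and TUBA1A by 0.38 ± 0.04, and these 4 lay at -0.27, -0.27, -0.41 and -0.47 on the hybridization-control scale. TUBB1 is known from platelets, whose markers are given beside 23% of all genes that rose and 29.7% that fell. Of 5 platelet markers measured THBS1 rose (0.19 and 0.78 in calves 301 and 303, or -0.37 on the hybridization-control scale), though not without the block (adjusted p = 0.123) and with 0.78 and 0.18 when the APP array of calf 301 or of calf 303 was left out, while PF4, SELP, ITGA2B and ITGB3 did not pass, and the part of platelets in the TUBB1 change was not tested. TUBB, the beta-tubulin of dividing and resting cells alike, was flat at 0.06 and -0.06 under PBS and -0.03 and -0.01 under APP. Tubulin genes are close copies of each other, so their probe sets may share signal.

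Among the falls TUBE1, epsilon-tubulin of the centriole, stood at 0.27 and 0.52 under PBS and at -0.65 and -0.35 under APP, a change of -0.90 ± 0.03 (SD, n = 2 calves; adjusted p = 0.000284, limma). TUBGCP4, a subunit of the gamma-tubulin ring, fell by 0.96 and 0.75 in calves 301 and 303. TUBGCP5, another ring subunit, fell by 0.67 and 0.93, and its probe sets gave -1.25 and -0.35. TUBD1, delta-tubulin (-0.56), and TUBGCP3 (-0.42) fell as well. TUBG1, gamma-tubulin itself, changed by -0.16 and -0.13 in the calves and did not pass (adjusted p = 0.236), nor did TUBGCP2.

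Kinesins mostly carry cargo toward the outer ends of microtubules. Among the 16 on the array 5 fell (31.25%, against 29.7% of all genes), 3 rose (18.75%, against 23%) and 8 were not called. Their median was -0.06. The kinesin-2 motors, which carry vesicles and serve cilia, held the largest changes. KIF3C read 0.64 and 0.82 under PBS and -1.56 and -1.19 under APP and fell 4.29-fold (-2.10 ± 0.13, SD, n = 2 calves; adjusted p = 1.85e-05, limma). KIF3A, which pairs with KIF3C or KIF3B, read 0.34 and 0.63 under PBS and -0.95 and -0.46 under APP and fell 2.28-fold (-1.19 ± 0.14; adjusted p = 0.000116). KIF3B went the other way, with a rise of 0.40 and 0.26 in calves 301 and 303 (adjusted p = 0.0263), or -0.52 on the hybridization-control scale. Its 2 probe sets gave 0.30 and 0.36.

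The conventional kinesin heavy chain KIF5B, a main cargo motor of most cells, changed by -0.07 (adjusted p = 0.569, limma), while KIF5C rose by 0.31 on the deposited scale and lay at -0.54 on the other. KIF2A, which takes tubulin off microtubule ends, fell by 0.68 and 0.51 in calves 301 and 303. KIF27, a ciliary kinesin-like protein, fell by 0.67 and 0.35. Of 6 kinesins that act in mitosis, KIF22 rose (0.35, or -0.50 on the hybridization-control scale), KIF23 fell (-0.42 ± 0.07, SD, n = 2 calves) and KIF18A, KIF20A, KIF2C and KIF4A did not pass.

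Of the 20 dynein and dynactin genes 10 fell, 3 rose and 7 did not pass, where 29.7% of all genes fell and 23% rose, a difference that was not tested. Their median was -0.35, a value that stayed below 0 under every scaling tried. The hybridization-control scale lowers every change, so it could not turn a fall. Array centring and quantile normalization moved the median of all genes only to 0.0126 and 0.0313. The Tctex-type light chains link the dynein motor to cargo, and all 3 measured fell. DYNLT3 led them, at 0.89 and 0.74 under PBS and -1.31 and -1.45 under APP, a 4.58-fold fall (-2.20 ± 0.02, SD, n = 2 calves; adjusted p = 1.48e-05, limma). Its 3 probe sets gave -2.39, -2.14 and -2.06, so all of them fell by a similar amount. DYNLT2B fell by 1.26 and 0.93 in calves 301 and 303 and DYNLT1 by 0.98 ± 0.45 (SD, n = 2 calves).

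The other dynein chains were mixed. DYNC1I2, an intermediate chain that holds dynactin, stood at 0.29 and 0.44 under PBS and -0.70 and -0.39 under APP and fell by 0.91 ± 0.12 (SD, n = 2 calves; adjusted p = 0.000346, limma). Its relative DYNC1I1, known from neurons, rose by 0.15 and 0.73 in calves 301 and 303 (adjusted p = 0.0397; -0.41 on the hybridization-control scale). The light intermediate chain gene DYNC1LI1 rose by 0.32 (-0.54 on that scale). The motor heavy chain gene DYNC1H1 changed by -0.21 (adjusted p = 0.127), an average over probe sets at -0.63, -0.42 and 0.41. DYNLL1, the light chain LC8, changed by -0.18 (adjusted p = 0.146), with probe sets at -0.40 and 0.03. In dynein 2, the motor of cilia, DYNC2I2 fell by 0.71, DYNC2I1 rose by 0.52 (-0.33 on that scale) and DYNC2LI1 did not pass.

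Dynactin, which tethers dynein to its cargo, fell in 5 of 6 genes, where 29.7% of all genes fell. ACTR10, the actin-related protein at the pointed end of its short filament, read 0.30 and 0.66 under PBS and -0.97 and -0.40 under APP, a 2.25-fold fall (-1.17 ± 0.14, SD, n = 2 calves; adjusted p = 0.000126, limma). DCTN5, also of the pointed end, fell by 0.63 and 0.78 in calves 301 and 303. DCTN3 (-0.52), DCTN1 (-0.51) and DCTN2 (-0.48), of the shoulder and arm, fell by similar amounts, though the probe sets of DCTN1 gave -1.12 and 0.09. ACTR1A, the actin-like protein of the filament itself, changed by -0.10 and -0.11 in calves 301 and 303 and did not pass (adjusted p = 0.382).

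Vimentin, the intermediate filament of lymphocytes, read 0.47 and 0.03 under PBS and -0.06 and -0.24 under APP. VIM fell by 0.52 and 0.27 in calves 301 and 303 (adjusted p = 0.0178, limma), without overlap of the groups. Septins form rings and filaments under the membrane, and of 9 measured 2 fell and none rose at the adjusted threshold. In comparison 29.7% of all genes fell and 23% rose. SEPTIN7, needed in nearly every septin filament, stood at 0.28 and 0.44 under PBS and -0.53 and -0.36 under APP and fell by 0.80 ± 0.01 (SD, n = 2 calves; adjusted p = 0.000457). SEPTIN1 fell by 0.57 and 0.23. SEPTIN11 changed by 0.10 and 0.71 in calves 301 and 303 (adjusted p = 0.0561; -0.45 on the hybridization-control scale). At an unadjusted p below 0.05 1 septin was higher and 3 were lower (limma).

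The remaining actin-related proteins work in the nucleus. ACTR6, of chromatin remodelling complexes, read 0.35 and 0.41 under PBS and -0.70 and -0.43 under APP and fell by 0.94 ± 0.14 (SD, n = 2 calves; adjusted p = 0.00032, limma), with -1.04 and -0.84 for its probe sets. ACTR8 changed by -0.14 (adjusted p = 0.246).

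**Figure D3:**
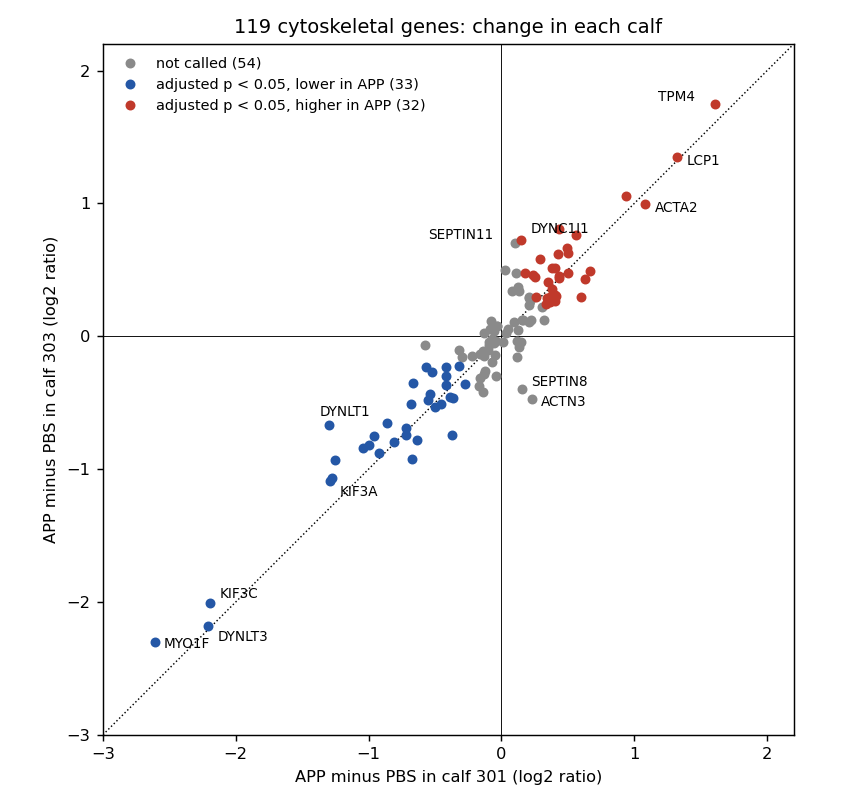
Change with APP in calf 301 (horizontal axis) against calf 303 (vertical axis), both as log2 ratios, for the 119 cytoskeletal genes, coloured by call, with the dotted line where the calves are equal. Points lie along that line from MYO1F (-2.61 and -2.30) to TPM4 (1.61 and 1.75), while DYNLT1, SEPTIN8 and ACTN3 lie off it.

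Across the 119 genes the changes of the calves correlated with Pearson r = 0.943 and Spearman rho = 0.903, against 0.930 and 0.880 over all genes. Genes are not independent replicates, and the arrays of a calf share its cells. The widest gaps between calves among called members were those of DYNLT1 (-1.30 and -0.66) and DYNC1I1 (0.15 and 0.73). ACTN3 (0.23 and -0.47) and SEPTIN8 (0.16 and -0.40) went in opposite directions and did not pass. The calves themselves differed in few members. TMSB15B was 1.33 higher in calf 303 than in calf 301 (adjusted p = 0.00195, limma) and ACTN1 0.97 higher (adjusted p = 0.00728), 2 of 119 against 1.27% of all genes. None was lower, against 0.437%, and 7 members were lower and 14 higher at an unadjusted p below 0.05. These calls were lost without the block and under quantile normalization.

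Where a gene has several probe sets they did not always agree. Of the 119 members 87 have 1 probe set and 32 have several, and for 18 of those 32 the probe sets differed in sign or by more than 0.5. Taken 1 by 1, 31 of the 169 probe sets rose, against 16.3% of all probe sets, and 41 fell, against 23.6%. The widest spans were those of TUBB2B (0.18 to 1.81), DCTN1 (-1.12 to 0.09) and DYNC1H1 (-0.63 to 0.41). MYH1, with 8 probe sets, ran only from -0.16 to 0.28.

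**Figure D4:**
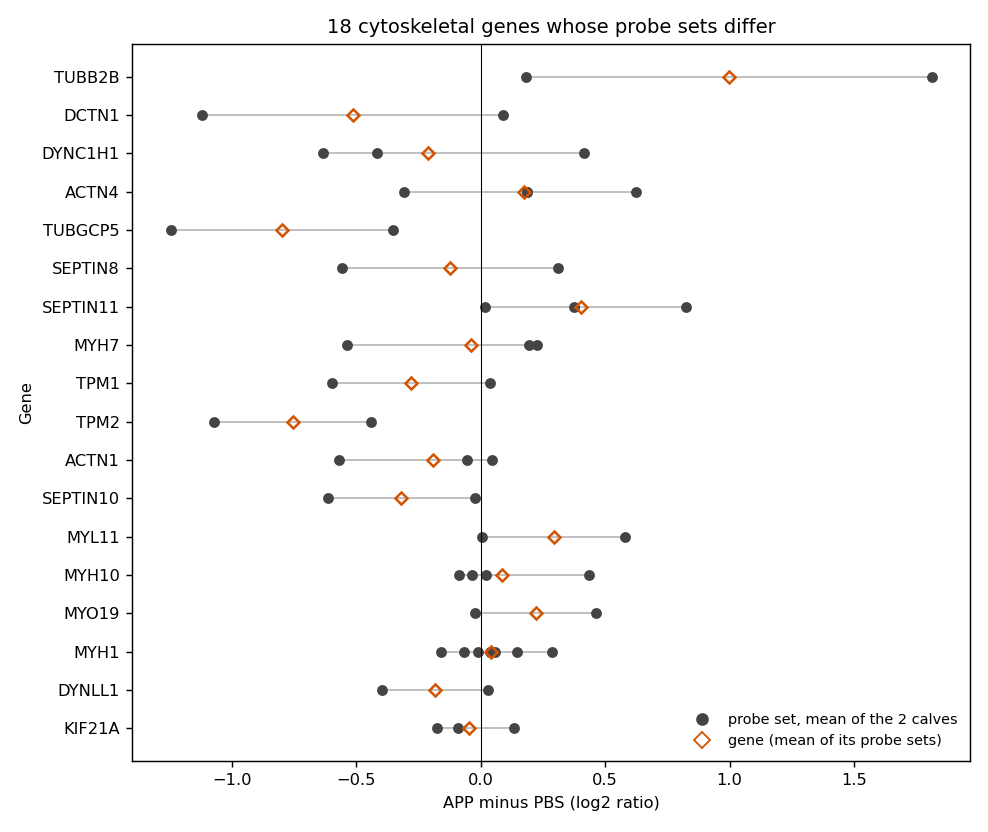
Change with APP (horizontal axis, log2 ratio, mean of the 2 calves) of each probe set (dots) of the 18 cytoskeletal genes whose probe sets differ in sign or by more than 0.5, with the gene's mean as an open diamond. The mean of TUBB2B (1.00) and that of DCTN1 (-0.51) fall between probe sets that lie far apart.

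Regulators of actin moved both ways too. Of 79 symbols listed, 52 were measured, and 14 of them rose (26.9%, against 23% of all genes) and 17 fell (32.7%, against 29.7%). Their median was -0.03. DSTN, destrin, which severs filaments as cofilin does, rose 4.89-fold (2.33 and 2.25 in calves 301 and 303; adjusted p = 1.38e-05, limma). The capping protein CAPG rose 3.10-fold (1.41 and 1.86), the formin DAAM1 2.22-fold (1.10 and 1.19) and ZYX, zyxin of stressed actin fibres, 2.21-fold (1.01 and 1.27), and all 4 stayed above 0 on the hybridization-control scale. CDC42EP3, an effector of the GTPase CDC42, fell 8.10-fold (-3.03 and -3.01). RDX, radixin, which ties actin to the membrane, fell by 1.61 and 1.49, while its relatives EZR (0.53) and MSN (0.42) rose, or lay at -0.32 and -0.43 on that scale. EVL, which lengthens filaments (-1.19), and the blood cell GTPase RAC2 (-1.14) fell.

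Among regulators of microtubules 50 of 69 listed were measured, and 11 rose (22%, against 23% of all genes) and 19 fell (38%, against 29.7%). Their median was -0.13. NUSAP1, a spindle protein, rose 7.57-fold (3.23 and 2.61 in calves 301 and 303; adjusted p = 2.15e-05, limma). The chaperonin CCT folds actin and tubulin, and all 6 of its measured genes rose, with CCT5 at 1.19, CCT3 at 1.07, CCT2 at 0.96 and CCT6A at 0.93, while CCT8 (0.54) and CCT4 (0.34) lay at -0.31 and -0.51 on the hybridization-control scale. Among the genes of these 2 lists given here, leaving out 1 array lost the calls of EZR, MSN, CCT4, CCT8 and TBCD in at least 1 fit. VBP1, of the prefoldin that hands chains to CCT, rose by 1.06 ± 0.09 (SD, n = 2 calves). The cofactors that assemble the tubulin dimer after CCT went the other way. TBCE fell 3.20-fold (-1.72 and -1.63; adjusted p = 2.85e-05), and TBCC (-1.01), TBCB (-0.79) and TBCD (-0.60) fell too, so that 4 of 5 fell and TBCA did not pass. CEP57 of the centrosome (-1.47), the tubulin deacetylase HDAC6 (-1.34) and the plus-end protein CLIP1 (-1.16) completed the largest falls. The grouping into chaperonin and cofactors was drawn with the values in view.

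Markers of other blood cells were read on the same arrays, where 23% of all genes rose and 29.7% fell. Of 12 gamma delta T cell markers 1 rose and 7 fell (CD7 at -1.60 and -1.56 in the calves). The rise was that of CD5 (0.60 and 0.64 in calves 301 and 303), of a size that turns on the hybridization-control scale. The T cell receptor chains CD3G (-0.47) and CD247 (-0.53) fell, as did CD163L1 (-1.08), while CD3E (-0.08) and CD3D (-0.13) did not pass. The receptor's gamma chain gene, TRGC1 (named TARP here), and ZAP70 did not pass either. Of 15 monocyte and dendritic cell markers 3 rose (CD68 by 1.90 and 2.71, CD14 by 0.46 and FCGR1A by 0.46 on average) and none fell, and CD14 and FCGR1A lay at -0.39 each on the hybridization-control scale. The CD14 call was lost without the block (adjusted p = 0.0837, limma), and it stood at 0.27 without APP 301. In at least 1 fit that left out 1 array the calls of CD14, FCGR1A, CD3G and CD247 were lost. CD5 was not followed in these fits. All 3 B cell markers measured fell, with BLK at -0.95 and -1.13, and none of 5 erythroid markers passed. At an unadjusted p below 0.05 4 monocyte and dendritic cell markers were higher and 0 lower, and 1 erythroid marker was higher (limma). MYO1F, LCP1 and VIM are also expressed by monocytes. As levels are lost, the summed level of a marker list could not be given, and the part of such cells in the changes above was not tested.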

How the data were processed

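RNA of 4 samples was measured on 1 Affymetrix bovine array each. Probes were summarised with RMA, per the submitters' processing notes, with no version or options given. The deposited values are linear ratios by the authors: the mean of the middle pair of values of a probe set had a median of 0.994 (1st to 99th percentile 0.986 to 0.9995), so each is a signal over that probe set's median across the 4 arrays. The unit was found from the values. Depth does not apply to arrays, and their number limits the precision.

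Ratios were log2 transformed, 112 control probe sets were left out (among them 3 actin controls that match the rule), and 24016 remained. Of these 13292 had 1 gene symbol, 86 several and 10638 none. Probe sets of a gene were averaged. Symbols were updated by identifier through RefSeq (assembly name ARS-UCD2.0), and all 119 members matched. No sequence is shown.

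The fit blocked by calf in limma 3.58.1 under R 4.3.3 (lmFit, eBayes, two-sided tests), with Benjamini-Hochberg adjustment over 9155 genes and a threshold of 0.05, on 1 residual and 5.86 prior degrees of freedom. Each calf gave cells to both treatments, per the titles, and the calf difference correlated between PBS and APP (r = 0.509 across genes). P-values rest on 2 animals. The code of the fit was run on simulated data to check the size of the changes it returned, which does not test the error rate of the calls here. Alternatives were no block, leaving out each array, 3 other scalings, other ways to combine probe sets, robust eBayes and a 2-fold threshold. The members and lists were chosen with earlier results of these data known. Named genes are up to 5 called members per role group with the largest change and the same direction in both calves, 24 genes named in any case (of which TMSB4X, MYO1G and TUBA1B were not analysed here), and up to 4 genes per direction and pathway list. Other names were picked with their values in view.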

Additional observations from a re-analysis of the deposited data

Results flagged for a closer look

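The array carries 3 control probe sets along an actin transcript, which the table pairs with ACTA1 and which entered no test. They are singled out here because they stood higher under APP than under PBS in both calves, in data outside the comparisons. The change was 0.38 for the 3′ probe set (0.46 and 0.30 in calves 301 and 303), 0.84 for the middle one (1.16 and 0.51) and 0.53 for the 5′ one (0.78 and 0.27). Each probe set is a ratio to its own median, so the 3′ minus 5′ difference compares arrays only and gives no absolute RNA integrity. It read 0.14 under PBS and -0.18 under APP in calf 301, with -0.04 and -0.01 in calf 303. ACTB, whose own probe set is separate, changed by 0.25. The gapd control probe sets changed by 0.07 (3′) and 0.13 (5′) on average. These were 0.15 and 0.26 in calf 301 and -0.01 each in calf 303. Scaled to the hybridization controls, which stood 0.85 higher under APP on average, the means of all 3 would lie below 0. By calf these controls stood higher by 0.76 in 301 and 0.94 in 303. The middle and 5′ probe sets of calf 301 (1.16 and 0.78) exceeded that calf's value. On that scale their direction thus differed between the calves.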

How the results depend on the processing

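Levels are lost, so no filter on low signal could be tried, and each arm holds 2 arrays. The fits that leave out 1 array leave 1 arm with a lone array, assumed to vary like the other arm. Under array centring, quantile normalization, the median of probe sets and robust eBayes no called member changed direction, and 62, 58, 62 and 65 of the 65 stayed called. For probe sets without an _x_, _s_ or _a_ suffix 59 of the 65 could be tested and 58 stayed called. The median change of the members, -0.02 as reported, was -0.0162 with arrays centred, 0.0134 with quantile normalization, 0.0030 with the median of probe sets, -0.0246 with the restricted probe sets and -0.0320 to 0.0457 when 1 array was left out, so that it has no firm sign.

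Without the replicate block 1399 genes and 17 members rose, while 2161 genes and 25 members fell. With 1 array left out, 745 to 1292 genes rose and 1305 to 2012 fell, and 5 to 15 members rose and 17 to 25 fell. These fits leave out the pairing of the same animals. At least 2-fold in both calves, 320 genes and 2 members were higher and 576 genes and 5 members lower. Over probe sets 3919 rose and 5672 fell. The excess of 116 genes higher and 40 lower in calf 303 became 66 and 16 with arrays centred and 2 and 0 with quantile normalization, and was 0 without the block (added after seeing the data) and in each fit without 1 array. The 2 members called higher in calf 303 became 0 in all of these but the centring. At an unadjusted p below 0.05 in limma, 656 genes were higher and 705 lower with quantile normalization, 63 and 18 without the block.

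Scaled to the hybridization controls, 286 genes rose and 8182 fell, 2 members rose and 110 fell, and the members' median was -0.869. Rises were then 3.38% of the calls over all genes, against 43.6% as deposited. Genes given above with a change above 0 that reversed on this scale were CFL1 (-0.19), CORO2A (-0.23), TUBA4A (-0.27), TUBB1 (-0.27), CAPZB (-0.29), CCT8 (-0.31), ACTA1 (-0.32), EZR (-0.32), DYNC2I1 (-0.33), MYO1D (-0.36), THBS1 (-0.37), PFN1 (-0.39), CD14 (-0.39), FCGR1A (-0.39), MYL4 (-0.40), TUBB4A (-0.41), MYL6 (-0.41), DYNC1I1 (-0.41), MYH9 (-0.42), MYO1C (-0.42), MSN (-0.43), SEPTIN11 (-0.45), DES (-0.45), TAGLN (-0.45), TUBA1A (-0.47), MYO15B (-0.48), ARPC4 (-0.49), CFL2 (-0.50), KIF22 (-0.50), MYO10 (-0.50), CCT4 (-0.51), KIF3B (-0.52), MYL2 (-0.52), CORO6 (-0.52), DYNC1LI1 (-0.54), KIF5C (-0.54), ACTN2 (-0.56), TPM3 (-0.57), ACTB (-0.60), MYO1A (-0.60), ACTG1 (-0.69), ACTR3 (-0.71) and MYL12A (-0.75). CD5 also turns on this scale, by the size of its rise, and its value was not listed. The shift is built into this scale, which moves every gene by the same amount, and which scale is right was not tested. Elsewhere ACTN1 reversed with the median of probe sets (0.0465) and DYNLL1 with the restricted probe sets (0.0281). When 1 array was left out, changes ran from -1.18 to 0.21 for TMSB15B, -0.71 to 0.33 for ACTN1, -0.37 to 0.13 for SEPTIN8, -0.21 to 0.0709 for KIF5B, -0.288 to 0.0192 for CD3D and -0.0811 to 0.0446 for TUBB.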
